A study of Mus musculus with 8 samples.

Results

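The change of gene expression in CTCF-K20R cells between mESCs on day 0 and EBs on day 4 is described here over all genes of the expression table. It rests on 4 of the 8 RNA-seq libraries of the series, 2 of CTCF-K20R mESCs and 2 of CTCF-K20R EBs, and the other 4 libraries hold WT cells on the same days. All cells were of E14Tg2A, a male mouse embryonic stem cell line, and lysine 20 of CTCF had been replaced by arginine in the CTCF-K20R cells with CRISPR/Cas9 and a donor vector. Drug selection was among the steps by which targeted colonies were chosen. The sources used here do not state whether both CTCF-K20R libraries of a day came from 1 clone. Until day 0 the mESCs were kept on mouse embryo fibroblasts inactivated with mitomycin C, in serum medium with leukemia inhibitory factor (LIF) and the 2i inhibitors CHIR99021 and PD0325901. EBs were then formed as hanging drops in serum medium that held no LIF. Day, medium, feeder cells and aggregation therefore changed together in both genotypes, and their parts cannot be told apart.

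CTCF is a zinc-finger protein that binds DNA and, with the cohesin ring, holds chromatin loops and the borders of chromosome domains. Mouse ESCs kept with LIF and 2i stay in a naive state of pluripotency, in which LIF acts through STAT3, PD0325901 blocks MEK and so the FGF and ERK pathway, and CHIR99021 blocks GSK3 and so keeps WNT signalling active. When these agents are withdrawn, the cells leave the naive state, pass through a formative state and then form the germ layers, of which mesoderm and definitive endoderm arise through a primitive streak driven by Nodal, WNT and BMP signals. The changed residue is shown with its surroundings in the reference coding sequence, because it is the residue replaced in the CTCF-K20R cells. In the annotated coding transcript of Ctcf, lysine 20 is coded by the triplet in capitals at chr8:105663820-105663822 (GRCm38, plus strand), in exon 3 of 12, within coding bases 28 to 90:
Ctcf, codon 20 in capitals: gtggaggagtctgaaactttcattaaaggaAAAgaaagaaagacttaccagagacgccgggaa

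The deposited values were normalized counts, which summed to between 19412659 and 21311513 in each library, and the 10 most abundant genes held 5.40% to 6.99% of a library. The limit of detection was set at 3 reads, which were worth 2.44 to 3.44 normalized counts in the libraries. Where 1 group did not exceed it, a linear fold is printed as a lower bound. Log2 fold changes of such genes are the fitted values and can lie beyond that bound. The squared differences between the 2 CTCF-K20R mESC libraries were 4.00 times, and those between the 2 CTCF-K20R EB libraries 4.36 times, what read sampling alone would give. The 2 WT mESC libraries and the 2 WT EB libraries gave 0.312 and 0.276 times, less than the sampling noise. Each WT pair was therefore counted as 1 sample, and no p-value is given for the change in WT cells, which lacks a replicate check. Ctcf itself was measured at 4610.0 and 4408 normalized counts in the mESCs and 4926 and 4771 in the EBs. Its level in CTCF-K20R cells moved by 0.11 ± 0.039 (SE) on the log2 scale, which did not pass the test (adjusted p = 0.0655), and a level says nothing about the mutated residue.

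CTCF-K20R cells changed the expression of many genes on the way to EBs. Of the 15767 genes whose mean over the 8 libraries reached 10 normalized counts, 4117 (26.1%) passed an absolute log2 fold change of 1 and an adjusted p of 0.05 by limma with Benjamini-Hochberg adjustment. These were 2284 genes higher in EBs (14.5%) and 1833 genes lower (11.6%), so 55.5% of the genes called were higher. Counts of list members below stand against these shares of 14.5% and 11.6%, or 26.1% in either direction. With no minimum fold asked for, 58.5% of the genes tested passed. The median log2 fold change over all genes tested was 0.0077. All log2 fold changes are differences of log2(normalized count + 1), EBs minus mESCs, and they understate the change of genes with low counts. A value given below as x ± y is such a log2 fold change or, where stated, a difference between the changes of the genotypes, with its standard error from the fit. The CTCF-K20R change had 2 libraries on each day. Past a log2 fold change of 3 there were 615 genes higher and 411 lower, and past 5 there were 139 and 83. In 270 of the genes called higher, both mESC libraries were at or under the limit of detection, and 33 of these averaged 100 normalized counts or more in EBs. The reverse, a gene called lower with both EB libraries at or under the limit, was seen for 105 genes, 9 of them averaging 100 or more in mESCs. The libraries are of whole cultures, in which fewer cells of a type and less RNA per cell cannot be told apart.

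Genes of the naive state fell together. All 16 members tested of the naive pluripotency list were called lower (11.6% of all genes tested were), with a median log2 fold change of -4.39 beside 0.0077 over all genes tested, and their summed level went from 115599 and 117794 normalized counts in the mESC libraries to 11163 and 10828 in the EB libraries. The 16 calls were kept when each CTCF-K20R library was left out in turn. Prdm14, a repressor that keeps the naive state and the germ line, was measured at 747 and 724 normalized counts in the mESCs and 6.86 and 4.37 in the EBs. Klf4, a zinc-finger activator that acts downstream of LIF, was measured at 4066 and 4379.5 normalized counts in the mESCs and 44.3 and 30.8 in the EBs. Both genes were high in both mESC libraries and low in both EB libraries, with log2 fold changes of -6.82 ± 0.26 (adjusted p = 1.81e-05) and -6.80 ± 0.18 (adjusted p = 6.23e-06). Tcl1, a cofactor of the AKT kinase, stood at 3304 and 3188 normalized counts in the mESCs and 43.6 and 32.7 in the EBs. Tbx3, a T-box factor of naive cells, stood at 10729 and 11695 normalized counts in the mESCs and 113 and 233 in the EBs, and both EB libraries lay far below both mESC libraries. Esrrb, an orphan nuclear receptor of the naive network, had a log2 fold change of -5.14 ± 0.055 (SE, adjusted p = 1.11e-06), from 16402 and 16202 normalized counts to 441 and 479.8. Nanog, a homeobox factor shared by naive and later pluripotent cells, showed the smallest fall of the list, from 16549 and 16387 to 5510.4 and 5208 normalized counts (log2 fold change -1.62 ± 0.036). Dppa3, a maternal factor that marks naive cells and germ cells, was below the filter, with 5.77 and 4.53 normalized counts in the mESCs and 16.6 and 20.4 in the EBs.

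The LIF and STAT3 list moved the same way, with 8 of 10 members called lower (11.6% of all genes tested), none higher and a median log2 fold change of -1.67. It shares Klf4 and Tfcp2l1 with the naive list. Tfcp2l1, a grainyhead-like factor that binds with STAT3 at naive genes, went from 13117 and 13135 normalized counts to 203 and 205 (log2 fold change -6.0 ± 0.045). Of the receptor chains, Lifr had a log2 fold change of -2.10 ± 0.06 and Il6st of -1.30 ± 0.05. Stat3 was at 1329 and 1607 normalized counts in the mESCs and 506 and 461 in the EBs. Among its targets, Bcl3 had a log2 fold change of -2.70 ± 0.31 and the kinase gene Pim1 of -1.74 ± 0.05. Socs3, the feedback inhibitor of the receptor, was lower too (-1.15 ± 0.18), a call that was lost without the second EB library, where the change was -0.95 on the log2 scale. Gbx2 and Junb did not pass, at -0.96 ± 0.29 and 0.37 ± 0.11.

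**Figure D1:**
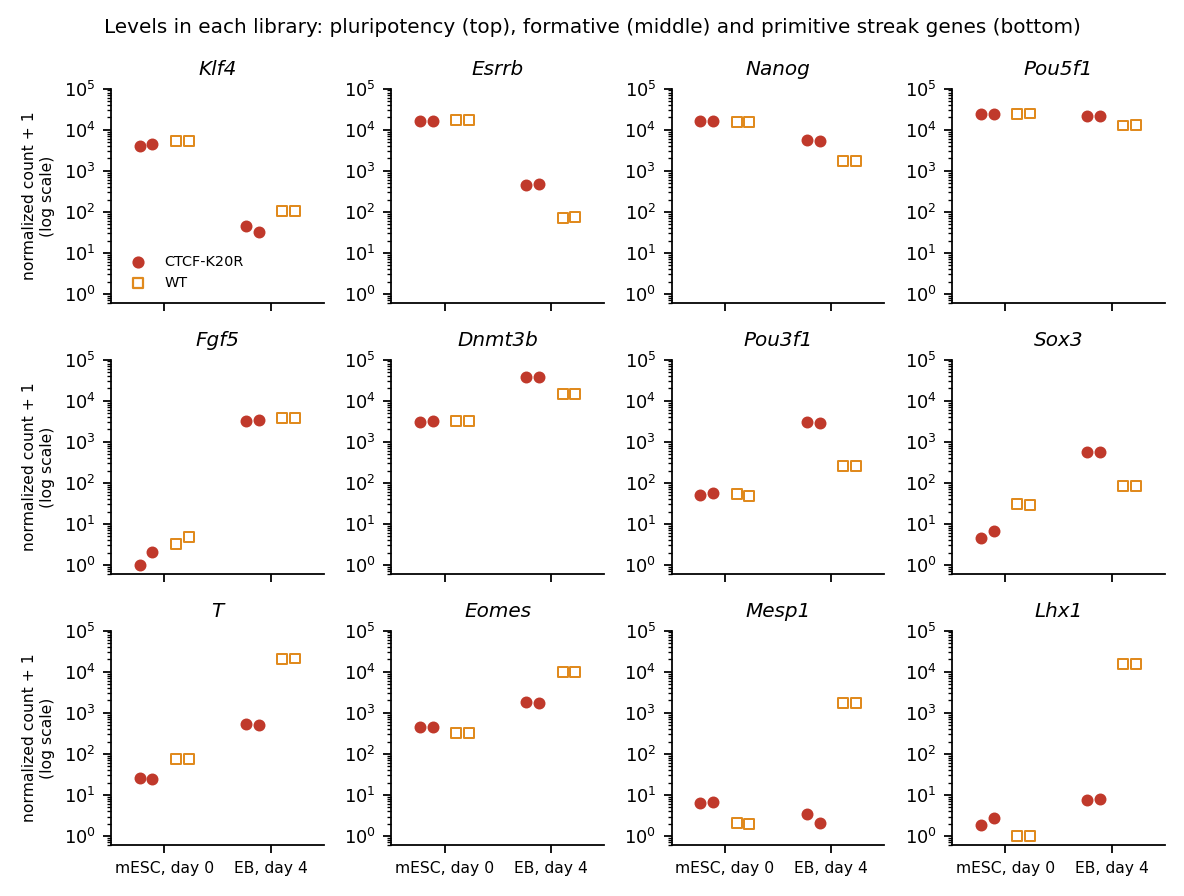
Normalized count plus 1 (log axis) of 12 genes in each of the 8 libraries, on day 0 (mESC) and day 4 (EB). Each filled circle is a CTCF-K20R library and each open square a WT library. In CTCF-K20R cells Klf4 and Esrrb fell and Fgf5, Dnmt3b, Pou3f1 and Sox3 rose. T and Eomes lie below the WT libraries on day 4, and Mesp1 and Lhx1 stayed below 10 normalized counts in CTCF-K20R cells.

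The general pluripotency list did not move as a whole. Of its 13 members, 4 were called lower and 2 higher (11.6% and 14.5% of all genes tested). The median log2 fold change was -0.14. Pou5f1, which codes for OCT4 and is needed in every pluripotent state, stood at 23485 and 24558 normalized counts in the mESCs and 21940.1 and 21590.1 in the EBs. The EB libraries lay just under the mESC libraries, and the difference of -0.14 ± 0.029 on the log2 scale was under the minimum fold. Sox2, its partner at many enhancers, was at 13545 and 12811 normalized counts in the mESCs and 3240.2 and 3192 in the EBs, with a log2 fold change of -2.03 ± 0.039 (SE, adjusted p = 3.32e-06). Dppa5a, an RNA-binding protein of ESCs, was at 32799 and 34823 normalized counts in the mESCs and 4079 and 4061 in the EBs. Gdf3, a ligand of the TGF-beta family, was at 1444 and 1419.8 normalized counts in the mESCs and 467 and 482 in the EBs. All 3 genes were called lower, without overlap of the days. In the other direction, Lin28a, which blocks the maturation of let-7 miRNAs, went from 2357 and 2235 to 12431 and 12918 normalized counts, with a log2 fold change of 2.46 ± 0.04 (SE, adjusted p = 2.29e-06). Utf1, a chromatin protein of pluripotent cells, was at 2393 and 2411 normalized counts in the mESCs and 5069 and 4802 in the EBs. Its log2 fold change of 1.04 ± 0.045 was close to the minimum, and without the first EB library it was 0.999 and the call was lost. Sall4, a zinc-finger factor, did not pass (0.12 ± 0.064).

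Genes of the formative and primed states rose in the CTCF-K20R EBs. Of 15 members, 12 were called higher (14.5% of all genes tested were) and 1 lower, with a median log2 fold change of 2.93, and these 13 calls were kept without any 1 CTCF-K20R library. Fgf5 (chr5:98254184-98277030, GRCm38), the growth factor that marks the epiblast after implantation, showed the largest rise of all genes named here. It was measured at 0 and 1.1 normalized counts in the mESCs and 3205 and 3309 in the EBs, which is at least 983-fold higher than the limit of detection in mESCs. Sox3, a SOX factor of the epiblast and early neural cells, was at 3.52 and 5.7 normalized counts in the mESCs and 553 and 574 in the EBs. Pou3f1, a POU factor that works beside OCT4 in formative cells, was at 48.6 and 54.6 normalized counts in the mESCs and 3033 and 2921 in the EBs. For the 3 genes both EB libraries lay far above both mESC libraries, and the log2 fold changes were 11.14 ± 0.37, 6.68 ± 0.28 and 5.83 ± 0.12. Otx2, the homeobox factor that redirects OCT4 to formative enhancers, rose from 481 and 479.6 to 3402 and 3436 normalized counts, with a log2 fold change of 2.83 ± 0.047 (SE, adjusted p = 2.29e-06). Grhl2, a grainyhead-like factor that opens epithelial enhancers, had 4.66 ± 0.16, and Car14, a carbonic anhydrase, 4.55 ± 0.13. Foxd3 and Tcf15 did not pass, at 0.37 ± 0.099 and 0.21 ± 0.14.

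The enzymes that write and erase DNA methylation split. Dnmt3b, a methyltransferase that sets new marks, was at 3108 and 3120.2 normalized counts in the mESCs and 36756 and 38179.8 in the EBs, and it was among the 8 most abundant genes called higher. Its change was 3.59 ± 0.03 on the log2 scale (adjusted p = 7.07e-07). Dnmt3a, the other such enzyme, had 1.48 ± 0.081, and Dnmt3l, their cofactor without activity of its own, was the member of the formative list called lower, with -1.78 ± 0.044. Tet2, which oxidizes methylated cytosine, was at 4347 and 4555 normalized counts in the mESCs and 297 and 284 in the EBs. Uhrf1, which guides the copying of marks after replication, had -1.10 ± 0.029, while Dnmt1, the copying enzyme, stayed under the minimum fold at -0.61 ± 0.028. Of the 9 genes of this list, 2 were called higher and 3 lower (14.5% and 11.6% of all genes tested).

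The promoters of 4 of these genes are shown, 2 that rose and 2 that fell, because CpG dinucleotides are the sites of that methylation. The windows run from 250 bases before to 50 bases after the RefSeq start (GRCm38.p6), with every CpG in capitals. They are Fgf5 at chr5:98253934-98254233 (plus strand), Dnmt3b at chr2:153649199-153649498 (plus strand), Klf4 at chr4:55532426-55532725 (minus strand) and Tfcp2l1 at chr1:118627695-118627994 (plus strand):
Fgf5: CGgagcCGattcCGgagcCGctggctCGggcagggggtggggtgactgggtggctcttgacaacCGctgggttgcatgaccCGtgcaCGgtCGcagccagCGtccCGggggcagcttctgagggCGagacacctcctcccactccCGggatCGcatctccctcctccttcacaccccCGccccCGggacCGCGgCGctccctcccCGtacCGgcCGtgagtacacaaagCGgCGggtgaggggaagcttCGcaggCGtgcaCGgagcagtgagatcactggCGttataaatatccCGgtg
Dnmt3b: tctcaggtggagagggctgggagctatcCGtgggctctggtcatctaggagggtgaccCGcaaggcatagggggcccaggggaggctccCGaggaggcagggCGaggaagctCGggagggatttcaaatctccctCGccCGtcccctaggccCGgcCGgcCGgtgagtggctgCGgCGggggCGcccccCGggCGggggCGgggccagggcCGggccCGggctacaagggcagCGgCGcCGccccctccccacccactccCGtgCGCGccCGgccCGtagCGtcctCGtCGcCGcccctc
Klf4: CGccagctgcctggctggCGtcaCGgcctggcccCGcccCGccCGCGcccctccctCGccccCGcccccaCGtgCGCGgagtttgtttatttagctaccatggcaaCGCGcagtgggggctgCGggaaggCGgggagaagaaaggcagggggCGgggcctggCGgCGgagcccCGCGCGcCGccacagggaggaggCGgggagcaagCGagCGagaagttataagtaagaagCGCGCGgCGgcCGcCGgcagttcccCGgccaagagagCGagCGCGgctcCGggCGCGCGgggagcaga
Tfcp2l1: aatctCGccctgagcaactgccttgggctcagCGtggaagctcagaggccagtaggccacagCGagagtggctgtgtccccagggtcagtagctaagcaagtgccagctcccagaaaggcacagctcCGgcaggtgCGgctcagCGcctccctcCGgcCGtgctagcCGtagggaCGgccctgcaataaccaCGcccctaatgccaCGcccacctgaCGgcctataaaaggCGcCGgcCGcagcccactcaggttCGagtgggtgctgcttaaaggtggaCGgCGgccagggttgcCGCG

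The window of Fgf5 held 29 CpG, that of Dnmt3b 30, that of Klf4 40 and that of Tfcp2l1 21. Over all 32851 promoter windows of the table the median was 7 (quartiles 3 and 20), and 94.6% of windows held at least 1. No methylation was measured in the files used here.

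**Figure D2:**
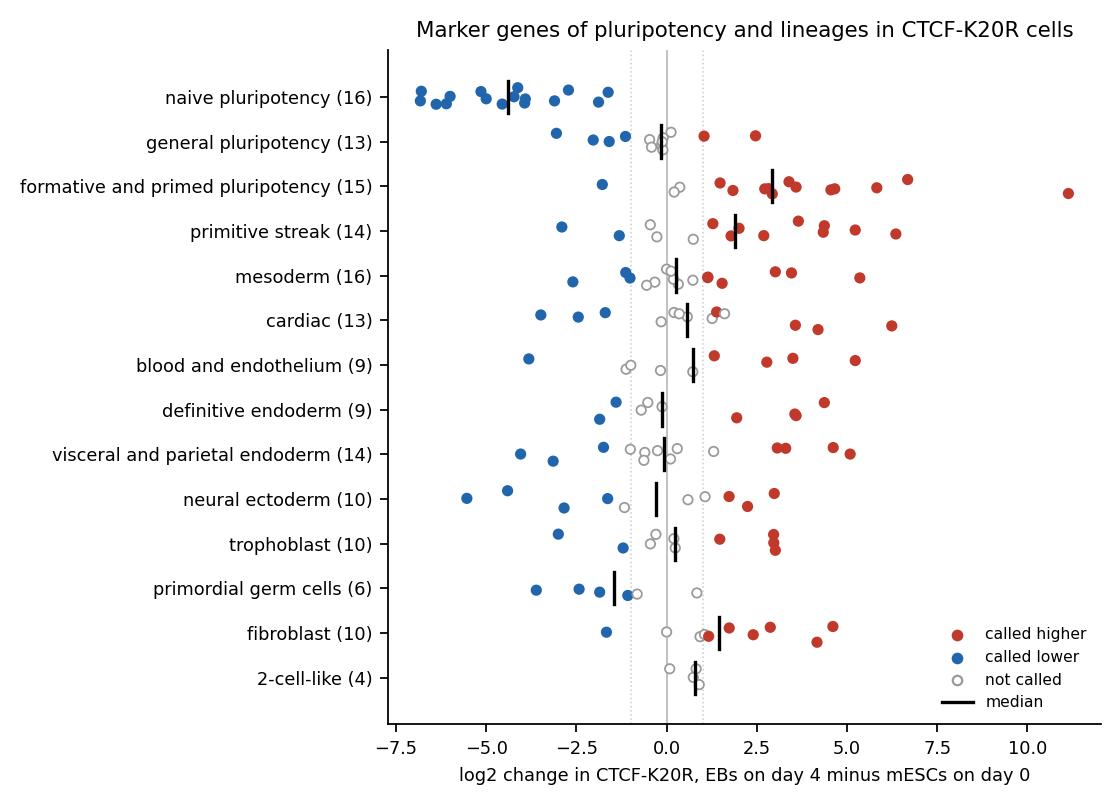
Log2 change in CTCF-K20R cells, EBs on day 4 minus mESCs on day 0, of each gene tested in 14 marker lists, with the number tested beside the list's name. Each point is 1 gene (red, called higher; blue, called lower; open, not called), the black bar is the list's median and the dotted lines mark a log2 change of 1 either way. The naive list lies wholly to the left, 12 of 15 formative genes lie past 1 on the right, and most other lists spread to both sides of 0.

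Primitive streak genes rose in part, and several stayed near the limit of detection. Of 14 members, 9 were called higher and 2 lower (14.5% and 11.6% of all genes tested). The median log2 fold change was 1.90, or 1.31 with genes at the limit of detection put at their bound. Without the first or the second EB library, 4 were called higher, and 1 was called lower without the second EB library or either mESC library. T (Brachyury), the T-box factor that defines the streak, was measured at 25.1 and 24.1 normalized counts in the mESCs and 520.3 and 515 in the EBs, with a log2 fold change of 4.34 ± 0.11 (SE, adjusted p = 6.00e-06). Eomes, the T-box factor of streak and endoderm, was at 456 and 443 normalized counts in the mESCs and 1844 and 1777 in the EBs. Both lay higher in both EB libraries. Fgf8, a growth factor of the streak, was at 5.22 and 12.2 normalized counts in the mESCs and 719 and 765 in the EBs. Wnt3, the ligand that starts the streak, was at 4.31 and 11 normalized counts in the mESCs and 305 and 291 in the EBs. In all 4 genes both EB libraries were above both mESC libraries. Other members stayed low on both days. Mesp1, the factor that marks the first mesoderm leaving the streak, was at 5.57 and 5.61 normalized counts in the mESCs and 2.4 and 1.07 in the EBs. Its call as lower (log2 fold change -1.31 ± 0.44, adjusted p = 0.0468) was lost without either mESC library or the second EB library, with adjusted p between 0.0728 and 0.12. Lhx1, a LIM homeobox factor of the anterior streak, was at 0.842 and 1.71 normalized counts in the mESCs and 6.65 and 6.78 in the EBs, and its call as higher was lost without either EB library (adjusted p = 0.0507 and 0.0522). Gsc, the homeobox gene of the organizer, did not pass, with 38.7 and 24.8 normalized counts in the mESCs and 20.5 and 24.5 in the EBs. Lefty2, an inhibitor of Nodal that is high in ESCs, was the clear fall of the list, from 10915 and 10649.9 to 1401 and 1481 normalized counts.

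In the Nodal list, 4 of 11 members were called higher and 2 lower (14.5% and 11.6% of all genes tested). The ligand Nodal was at 1293 and 1291 normalized counts in the mESCs and 1899 and 1942 in the EBs, a difference under the minimum fold (0.57 ± 0.049). Its coreceptor Tdgf1 stayed between 11495 and 12462 normalized counts in the 4 libraries. Foxh1, the factor through which the SMAD complex reads DNA, had 1.12 ± 0.059. Lefty1, a feedback inhibitor, was at 1102 and 1201 normalized counts in the mESCs and 2333 and 2433 in the EBs, just past the minimum fold, and without the first mESC library its change was 0.99. Cer1, a secreted inhibitor of Nodal, WNT and BMP, reached only 8.01 and 8.76 normalized counts in EBs, at least 2.53-fold over the limit, and its call was lost without either EB library (adjusted p = 0.0544 and 0.0586).

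Mesoderm genes showed no common direction. Of 16 members tested, 6 were called higher and 3 lower (14.5% and 11.6% of all genes tested). The median log2 fold change was 0.26. The summed level of the list was 981 and 853 normalized counts in mESCs and 769 and 864 in EBs. Without either EB library or the first mESC library, 1 member was called lower. Rspo3, a secreted enhancer of WNT signalling, was at 0 normalized counts in both mESC libraries and 33.1 and 48.2 in the EBs. Dll3, a Notch ligand of the forming somites, was at 74.3 and 82.8 normalized counts in the mESCs and 224 and 235 in the EBs. Both were higher in both EB libraries. Aplnr, the apelin receptor of early heart mesoderm, was at 0 normalized counts in both mESC libraries and 11.4 and 8.75 in the EBs. Hand1, a bHLH factor of heart and extraembryonic mesoderm, was at 0.999 and 1.02 normalized counts in the mESCs and 19.3 and 12 in the EBs. All 4 rose, and in Rspo3, Aplnr and Hand1 the mESC libraries were at or under the limit, which puts the folds at no less than 12.3, 3.05 and 4.72. Bmp4, a ligand that patterns the mesoderm, fell from 263 and 269 to 39 and 47.7 normalized counts. Msgn1, a bHLH factor of the presomitic mesoderm, was at 0 in all 4 CTCF-K20R libraries. Tbx6, another factor of that tissue, did not pass (0.32 ± 0.34), and Pdgfra, a receptor of early mesoderm, was at 60.2 and 42.7 normalized counts in the mESCs and 18.3 and 33 in the EBs. The call of Pdgfra as lower (adjusted p = 0.0498) was lost without any 1 of the 4 libraries, with adjusted p between 0.0585 and 0.233.

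Of 13 cardiac genes tested, 4 were called higher and 3 lower (14.5% and 11.6% of all genes tested). The median log2 fold change was 0.57, or 0.20 with genes at the limit put at their bound, and without the second EB library 7 were called higher. Actc1, the cardiac form of actin that also marks early mesoderm, was at 0 normalized counts in both mESC libraries and 74.3 and 75 in the EBs, at least 22.5-fold over the limit. Myh6, a myosin heavy chain of the atrium, was at 3.81 and 3.87 normalized counts in the mESCs and 55.4 and 57.5 in the EBs. Mef2c, a MADS-box factor of muscle, was at 0 normalized counts in both mESC libraries and 18.9 and 15.9 in the EBs. The 3 genes rose from near the limit of detection. Myl7, an atrial light chain, was at 122 and 118 normalized counts in the mESCs and 21.8 and 20.5 in the EBs, the opposite direction, and Smarcd3, the heart subunit of the SWI/SNF remodeller, had -1.70 ± 0.22, with 48.2% of its exonic bases shared with a gene on the other strand. Isl1, a LIM homeobox factor of the second heart field, did not pass (1.26 ± 0.50), and Tnnt2, cardiac troponin T, was below the filter. Of the blood and endothelium list, 4 of 9 were called higher and 1 lower (14.5% and 11.6% of all genes tested). Without either EB library 2 were called higher, and without the second mESC library 2 were called lower. Tal1, the master bHLH factor of blood, was at 1.68 and 0.749 normalized counts in the mESCs and 78.4 and 81.9 in the EBs. Etv2, an ETS factor of the vessel and blood precursor, was at 14 and 20 normalized counts in the mESCs and 139 and 105 in the EBs. Both rose in both EB libraries. Pecam1, an adhesion molecule of endothelium that naive ESCs also carry, was at 2514 and 2521 normalized counts in the mESCs and 183 and 172 in the EBs. The embryonic globin Hbb-bh1 was below the filter, with 0 normalized counts in both mESC libraries and 25.2 and 21.7 in the EBs.

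Endoderm lists were mixed as well. Of 9 definitive endoderm genes, 4 were called higher and 2 lower (14.5% and 11.6% of all genes tested). The median was -0.13, and 2 were called higher without either EB library. Sox17, the SOX factor of definitive endoderm, was at 0 normalized counts in both mESC libraries and 15.5 and 7.8 in the EBs, at least 3.51-fold over the limit. Trh, the gene of thyrotropin-releasing hormone and a marker of the early gut, was the most abundant member, with 2022 and 1905 normalized counts in the mESCs and 23208 and 22926 in the EBs. Hhex, a homeobox factor of the anterior endoderm, fell (-1.40 ± 0.18), as did Prdm1, a repressor of endoderm and germ cells (-1.85 ± 0.15). Gata6, the zinc-finger factor that founds the endoderm, did not pass and was at 13.5 and 11.2 normalized counts in the mESCs and 4.69 and 10.7 in the EBs. Of 14 visceral and parietal endoderm genes, 4 were called higher and 3 lower (14.5% and 11.6% of all genes tested). Dab2, an endocytic adaptor, was at 6.15 and 6.33 normalized counts in the mESCs and 262 and 229 in the EBs. Lamb1, a laminin chain of the basement membrane, was at 398 and 446 normalized counts in the mESCs and 3513 and 3563 in the EBs. Lama1, another laminin chain, moved the other way, with 1464 and 1489 normalized counts in the mESCs and 164 and 168 in the EBs. The defining secreted markers Afp, Ttr, Apoa1 and Apoa4 were below the filter, at 0 in both mESC libraries and at most 5.74 normalized counts in an EB library.

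Neural ectoderm genes gave 3 called higher and 4 lower of 10 tested (14.5% and 11.6% of all genes tested). The number called higher was 2 without the second EB library. Pax6, a paired-box factor of the neural plate, was at 15.5 and 22.3 normalized counts in the mESCs and 100.2 and 84.2 in the EBs. Nes, the intermediate filament nestin, was at 774 and 744 normalized counts in the mESCs and 2504 and 2539 in the EBs. Both rose, with the days apart. Sox21, a SOX factor that is also active in ESCs, fell from 478 and 464 to 7.06 and 11.8 normalized counts. Ncam1, a neural adhesion molecule, and Tubb3, a neuronal tubulin, had -4.41 ± 0.25 and -2.84 ± 0.065. Sox1, the earliest SOX factor of the neural plate, was at 142 and 150.0 normalized counts in the mESCs and 40.1 and 53.8 in the EBs. Olig2 and Neurog2 were not analysed here. Of 10 trophoblast genes, 4 were called higher and 2 lower (14.5% and 11.6% of all genes tested). The number called lower was 1 without the second mESC or second EB library. The keratins Krt18 and Krt8, shared with the epithelial list, had 2.97 ± 0.07 and 1.47 ± 0.079, while Tfap2a, an AP-2 factor, had -3.0 ± 0.25. Of 6 primordial germ cell genes tested, 4 were called lower (11.6% of all genes tested) and none higher. Kit, the stem cell factor receptor, led them with 4221 and 3939 normalized counts in the mESCs and 284 and 390.5 in the EBs.

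The fibroblast list marks the kind of cell on which the mESCs were grown. The whole list of 13 summed to 570 and 574 normalized counts in the CTCF-K20R mESC libraries and to 1202 and 1117 in the EB libraries. Of 10 members tested, 6 were called higher and 1 lower (14.5% and 11.6% of all genes tested). The number called higher was 4 without the second mESC library or the second EB library. Pdgfrb, a PDGF receptor of fibroblasts, held most of the day 0 sum and was the member called lower, with 353 and 369 normalized counts in the mESCs and 121 and 105 in the EBs. Col1a1, the main collagen of fibroblasts, was at 34.3 and 32.2 normalized counts in the mESCs and 48.9 and 84.1 in the EBs. Col3a1, a fibrillar collagen, was at 0 and 1.51 normalized counts in the mESCs and 62.9 and 22.4 in the EBs. Thy1, a surface protein of fibroblasts, was at 104 and 103 normalized counts in the mESCs and 579.8 and 526 in the EBs. Col1a1 did not pass, while Col3a1 and Thy1 rose. Lum, Dcn, Postn and Twist2, 4 further markers, were at 0, 0, 0 and 0 normalized counts in the first CTCF-K20R mESC library and 1.1, 0, 0 and 0 in the second. The remaining members were above 0 in both. Loxl1 was at 29.6 and 22.2, Col1a2 at 21.6 and 12.2 and Fbn1 at 16.1 and 27.2. Acta2 was at 6.44 and 2.2 and Prrx1 at 4.57 and 3.13. The part of carried-over feeder cells in any result was not tested.

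**Figure D3:**
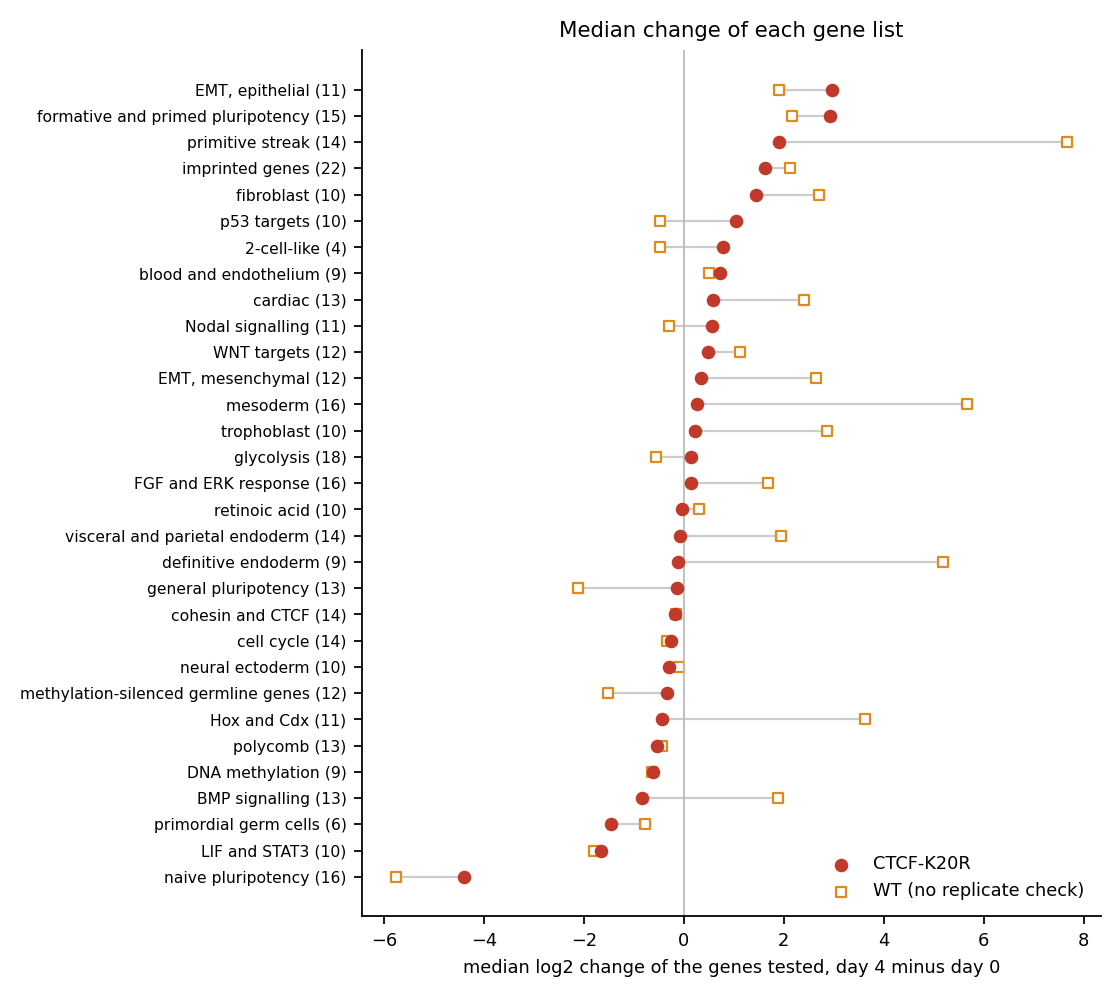
Median log2 change between day 0 and day 4 of 31 gene lists, with the number of genes tested. Filled circles are CTCF-K20R cells and open squares are WT cells, whose change has no replicate check. In CTCF-K20R cells the medians run from -4.39 for naive pluripotency to 2.97 for epithelial genes, and the widest gaps to WT are those of the primitive streak, mesoderm and definitive endoderm lists. Of the genes tested in these lists, 4, 5 and 2 passed the filter through the WT libraries, which bound them to differ.

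Among signalling pathways, the response list of FGF and ERK, the pathway that PD0325901 blocks, moved both ways. Of 16 members, 7 were called higher and 2 lower (14.5% and 11.6% of all genes tested), and the median was 0.13. Those higher were the phosphatase genes Dusp4 and Dusp6, the inhibitors Spry1, Spry2 and Spry4, and the transcription factor genes Myc and Fosl1, the last of which lost its call without the first EB library. Of the exonic bases of Fosl1, 57.2% are shared with a gene on the other strand. Dusp4, a phosphatase that switches off ERK, was at 63 and 62 normalized counts in the mESCs and 2327 and 2292 in the EBs, with a log2 fold change of 5.19 ± 0.081 (SE, adjusted p = 2.02e-06). Dusp6 had 2.47 ± 0.091, and Spry1 2.50 ± 0.099. Egr1 and Fos, transcription factors that growth factors induce within minutes, stood at 6611, 6471, 422 and 455 and at 1132, 1085, 48.5 and 65.5 normalized counts, the first 2 of each being the mESC libraries. Both were far lower in EBs, with -3.90 ± 0.054 and -4.27 ± 0.16 on the log2 scale. Etv4 and Etv5, ETS factors downstream of FGF, stayed under the minimum fold (-0.54 ± 0.085 and -0.65 ± 0.039).

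WNT targets were split, with 3 of 12 called higher and 3 lower (14.5% and 11.6% of all genes tested). Lef1, a DNA-binding partner of beta-catenin, was at 80.5 and 75.3 normalized counts in the mESCs and 804 and 850.5 in the EBs, and Nkd1, a feedback inhibitor, had 2.01 ± 0.17. Cdx1, a caudal homeobox gene, fell from 527 and 526 to 8.2 and 11.8 normalized counts. Notum, a secreted enzyme that inactivates WNT ligands, fell from 827 and 949 to 30.5 and 10.1, and 29.4% of its annotated exonic bases lie in a gene on the other strand. BMP genes gave 4 called higher and 5 lower of 13 (14.5% and 11.6% of all genes tested), with a median of -0.83. Without the second EB library 2 were called higher, and without the second mESC library 3 were called lower. The inhibitors of differentiation Id1 and Id2 had 1.84 ± 0.10 and 2.40 ± 0.17, and Id4 -3.15 ± 0.27. Msx2, a homeobox target of BMP, was at 151 and 204 normalized counts in the mESCs and 6.81 and 12.9 in the EBs.

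The retinoic acid and Hox lists went both ways. Of 10 retinoic acid genes, 3 were called higher and 3 lower (14.5% and 11.6% of all genes tested). In every fit without 1 CTCF-K20R library, 2 stayed called higher and 1 lower. Crabp2, which carries retinoic acid to its receptor, was at 28.3 and 28.5 normalized counts in the mESCs and 393 and 378 in the EBs, and Dhrs3, a reductase that lowers retinoic acid, had 1.99 ± 0.20. Stra8, a retinoic acid target of germ cells, was at 49.8 and 45.5 normalized counts in the mESCs and 1.93 and 2.36 in the EBs, at least 13.9-fold lower. Of 11 Hox and Cdx genes, 2 were called higher and 4 lower (54.5%, beside 26.1% of all genes tested). Without the first EB library 1 was called higher. Hoxb3, a gene of the anterior Hox cluster, was called higher at 2.81 and 2.94 normalized counts in the mESCs and 25.4 and 11.6 in the EBs, and 52.9% of its exonic bases are shared with an antisense gene. Hoxc4 had -2.10 ± 0.32, and Hoxa3 was at 0 in both EB libraries after 3.86 and 4.72 normalized counts in mESCs.

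Epithelial genes rose, and mesenchymal genes went both ways. Of 11 epithelial members, 8 were called higher (14.5% of all genes tested) in the fit and in each fit without 1 library, and the median log2 fold change was 2.97. Esrp1, the splicing regulator of epithelial cells, was at 26.9 and 38.7 normalized counts in the mESCs and 3350.0 and 3269 in the EBs, with a log2 fold change of 6.64 ± 0.18 (SE, adjusted p = 7.00e-06). The claudins of tight junctions Cldn6 and Cldn7 had 4.36 ± 0.062 and 4.13 ± 0.12. Epcam, an adhesion molecule, was at 398 and 407 normalized counts in the mESCs and 4615 and 4524 in the EBs. Cldn4, another claudin, was the member called lower, and its change of -1.0 ± 0.06 sat at the minimum fold (-0.96 without the first mESC library). Cdh1, E-cadherin, was under the minimum fold (0.43 ± 0.029). Of 12 mesenchymal members, 4 were called higher and 4 lower (14.5% and 11.6% of all genes tested). Fn1, fibronectin, was at 45080.2 and 44384 normalized counts in the mESCs and 3602 and 3976 in the EBs, with a log2 fold change of -3.56 ± 0.048 (SE, adjusted p = 1.59e-06), and it was the most abundant of all genes called lower. Zeb1, a repressor of epithelial genes, had -3.40 ± 0.12, and Vim, vimentin, -1.70 ± 0.15. Zeb2, the paralog of Zeb1, and the gelatinase gene Mmp2 moved the other way, with 3.46 ± 0.37 and 3.12 ± 0.099. Twist1, a bHLH factor of mesenchyme, was at 19.9 and 19.4 normalized counts in the mESCs and 173 and 148 in the EBs.

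Imprinted genes, which are read from only 1 parental copy and several of which are set by CTCF binding, rose in their majority. Of 22 members, 14 were called higher and 1 lower (14.5% and 11.6% of all genes tested), with a median log2 fold change of 1.63, and 11 to 15 were called higher without 1 library. H19, the non-coding RNA of the locus where CTCF separates H19 from Igf2, was at 41 and 29.7 normalized counts in the mESCs and 774 and 769 in the EBs, with a log2 fold change of 4.43 ± 0.19 (SE, adjusted p = 2.93e-05). Nnat, a small membrane protein of neurons, was at 148 and 173 normalized counts in the mESCs and 1593 and 1587 in the EBs. Snrpn, a splicing protein, was at 1390.4 and 1441 normalized counts in the mESCs and 12714 and 12509 in the EBs. Both lay far above their mESC levels in both EB libraries, and 27.3% of the exonic bases of Snrpn lie in another annotated gene of its strand. Igf2 itself was at 43.2 and 15.9 normalized counts in the mESCs and 181 and 154 in the EBs. Its rise was lost without either EB library (adjusted p = 0.0934 and 0.0794), and 62.8% of its exonic bases lie in another gene on the same strand. The maternal RNAs Meg3 and Rian of the Dlk1 locus had 2.20 ± 0.045 and 2.07 ± 0.052. Plagl1, a zinc-finger regulator of other imprinted genes, fell from 5172 and 5140.2 to 369 and 432 normalized counts. In WT cells, whose change has no replicate check, the median of the list was 2.12. RNA totals do not show which parental copy was read.

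**Figure D4:**
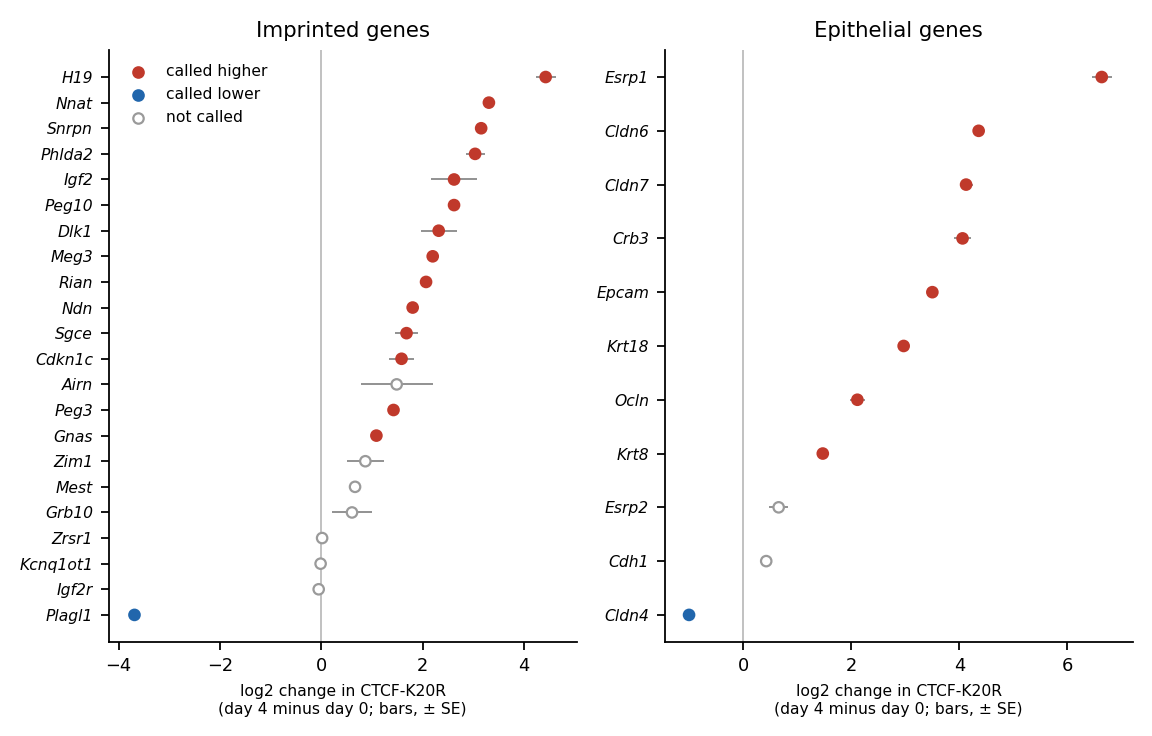
Log2 change in CTCF-K20R cells, EBs on day 4 minus mESCs on day 0, with the standard error from the fit as bars, for 22 imprinted and 11 epithelial genes (red, called higher; blue, called lower; open, not called). H19 and Esrp1 head the lists with 4.43 and 6.64, and Plagl1 and Cldn4 are the members called lower.

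Of 12 germline genes that DNA methylation silences in somatic cells, 3 were called higher and 4 lower (14.5% and 11.6% of all genes tested). Hormad1 and Dazl, genes of meiosis and germ cells, had -3.63 ± 0.23 and -3.31 ± 0.25, and Stk31 -2.68 ± 0.19. Tdrd1, a tudor protein of the piRNA pathway, was at 4.32 and 13.2 normalized counts in the mESCs and 146 and 158 in the EBs, the opposite direction. Sycp3, of the synaptonemal complex, had 1.99 ± 0.18, and 52.2% of its exonic bases are shared with a gene on the other strand. The Zscan4 genes of 2-cell-like cells did not pass. Zscan4c was at 66.7 and 59.5 normalized counts in the mESCs and 102 and 110.1 in the EBs. Zscan4f was at 80.1 and 141 normalized counts in the mESCs and 247 and 162 in the EBs, and reads may be split among these near-identical copies.

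Of the 14 genes of cohesin and CTCF, 1 was called higher and none lower, or 1 lower without the second mESC library. The share called was 7.1%, beside 26.1% of all genes tested. Stag2, a cohesin subunit, was at 2230.1 and 2139 normalized counts in the mESCs and 6542 and 6485 in the EBs, with a log2 fold change of 1.58 ± 0.038 (SE, adjusted p = 5.17e-06). Rad21, the kleisin of the ring, was at 12123 and 11856 normalized counts in the mESCs and 6904 and 6921 in the EBs, a difference under the minimum fold. The ring subunits Smc1a and Smc3 had -0.21 ± 0.046 and -0.23 ± 0.029. Of 13 polycomb genes, 3 were called lower and none higher, 23.1% of them beside 26.1% of all genes tested. Suz12, a core subunit of the complex that methylates histone H3, had -1.31 ± 0.056, and Scml2 -1.64 ± 0.23. Bmi1 had -1.61 ± 0.25, and this call was lost without the second EB library (adjusted p = 0.0557). Of 14 cell cycle genes, 2 were called higher and 1 lower, 21.4% of them beside 26.1% of all genes tested. Without either EB library 1 was called higher, and without the second mESC or second EB library 2 were called lower. Ccnd3, a D-type cyclin, was at 6741 and 6794 normalized counts in the mESCs and 1803 and 1822 in the EBs. Ccnd2, another, was at 9.7 and 5.49 normalized counts in the mESCs and 158 and 138 in the EBs. The D-type cyclins thus moved in opposite directions, while the proliferation marker Mki67 stayed between 6216 and 7068 in the 4 libraries.

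Targets of p53 rose for 5 of 10 members (14.5% of all genes tested) and fell for none, with a median of 1.05, and the 5 calls were kept without any 1 library. Phlda3, an inhibitor of AKT, was at 591 and 545 normalized counts in the mESCs and 1727 and 1661 in the EBs. Trp53inp1, a stress-response protein, was at 3110.4 and 3070.0 normalized counts in the mESCs and 7069 and 7189 in the EBs. Aen, a nuclease, and Ccng1, a cyclin, had 1.19 ± 0.045 and 1.17 ± 0.032, and Eda2r, a receptor of the TNF family, had 1.21 ± 0.079. The best known member, Cdkn1a, moved by -0.33 ± 0.044 and was not called. Of 18 glycolysis genes, 2 were called higher and 2 lower, 22.2% of them beside 26.1% of all genes tested. Slc2a1, the glucose transporter GLUT1, was at 15046 and 14980.2 normalized counts in the mESCs and 33816 and 34189.8 in the EBs, with a log2 fold change of 1.18 ± 0.022 (SE, adjusted p = 3.10e-06), and Pdk1, a kinase that keeps pyruvate out of the mitochondrion, had 1.06 ± 0.033. Pfkp, the platelet form of phosphofructokinase, fell from 20655 and 19886 to 3002 and 3031 normalized counts, and the hexokinase gene Hk1 had -2.35 ± 0.063.

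Among genes that averaged 100 normalized counts or more, several of the largest rises lay outside these lists. Enpp2, the enzyme that makes lysophosphatidic acid, was at 1.24 and 6.53 normalized counts in the mESCs and 3839 and 3855 in the EBs, with a log2 fold change of 9.87 ± 0.55 (SE, adjusted p = 6.60e-05). Pxdc1 and Hs6st2, the latter a sulfotransferase of heparan sulfate, were at 0 in both mESC libraries and reached 433 and 451 and 460.0 and 401 normalized counts in EBs, at least 133-fold and 130.0-fold over the limit. Fndc3c1 (8.61 ± 0.37), Car4, a carbonic anhydrase (8.60 ± 0.29), the imprinted gene Magel2 (8.50 ± 0.65), Clca4a (8.40 ± 0.76), Mal2 (8.25 ± 0.33) and the glycosyltransferase gene Galnt3 (8.13 ± 0.45) were among the 12 largest, as were Fgf5 and Gm5884. In Car4 and Mal2 the mESC libraries were at or under the limit, which puts the folds at no less than 267 and 91.4. Gm5884 is annotated as a processed pseudogene, its EB libraries differed widely (929 and 125), and its value is uncertain because copies of the parent gene can share its reads.

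The largest falls were led by Ly6a, a surface protein of stem cells and fibroblasts, at 456 and 408 normalized counts in the mESCs and 0 and 5.01 in the EBs. Emp1, an epithelial membrane protein, was at 521 and 469 normalized counts in the mESCs and 0 and 7.65 in the EBs. In both genes the EB libraries were far below the mESC libraries, with wide SEs of 0.82 and 0.97, and 1 EB library of each was at 0. The class I-like gene H2-M5 was at 1696 and 1576 normalized counts in the mESCs and 11.6 and 9.13 in the EBs, with a log2 fold change of -7.18 ± 0.17 (SE, adjusted p = 4.61e-06), and Arl14epl at 1882 and 1781 normalized counts in the mESCs and 14.6 and 10.9 in the EBs. Laptm5, a lysosomal protein of blood cells, was 133-fold lower on the scale of mean counts, from 1360.0 and 1450.2 to 13.4 and 7.73 normalized counts. The other genes among the 12 largest falls were 2410137M14Rik (-7.31 ± 0.31), Fam25c (-7.21 ± 0.25), Lrrc31 (-7.06 ± 0.31), the adhesion receptor gene Adgrg6 (-6.66 ± 0.40) and AU018091 (-6.59 ± 0.14), beside Prdm14 and Klf4. In 2410137M14Rik the EB libraries were at or under the limit, a fall of at least 113-fold.

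The most abundant genes called changed by smaller factors with tight replicates. Cmah, the hydroxylase of sialic acid, was at 68605 and 67667 normalized counts in the mESCs and 191768 and 185958 in the EBs, with a log2 fold change of 1.47 ± 0.022 (SE, adjusted p = 1.81e-06). Gm38312, an annotated transcript to be experimentally checked, was at 15562 and 15311 normalized counts in the mESCs and 43213 and 42994 in the EBs. Adarb2, an RNA editing protein without known activity, and the non-coding gene 2810429I04Rik had 1.30 ± 0.039 and 1.40 ± 0.033. Among abundant genes called lower, Eif2s2, a subunit of the translation initiation factor eIF2, was at 30402 and 29928 normalized counts in the mESCs and 12958 and 12341 in the EBs. Mybl2, a cell cycle factor of the MYB family, had -2.39 ± 0.05, and Fscn1, the actin bundler fascin, -1.44 ± 0.038.

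The change of CTCF-K20R cells was then set beside that of WT cells, and the difference between both changes was tested in the same fit. WT had 1 averaged sample on each day there. Standard errors and adjusted p-values of the difference therefore assume that WT varies like the CTCF-K20R libraries, which was not tested. Of the genes called higher in CTCF-K20R, 1664 (72.9%) were higher past the minimum fold in WT too, and 63 were lower past it. Of the genes called lower, 1318 (71.9%) were lower past it in WT and 71 were higher. Read from the WT side, 2977 genes (18.9%) were higher past the fold, of which 55.9% were called higher in CTCF-K20R, and 2569 genes (16.3%) were lower, of which 51.3% were called lower. Across genes, which are not independent replicates, the changes had a Pearson r of 0.721 and a Spearman rho of 0.677, and their SD was 1.46 in CTCF-K20R and 1.77 in WT. The difference in response was called for 2031 genes (12.9%), 1079 with a higher response in CTCF-K20R (6.84%) and 952 with a lower one (6.04%). With library totals made equal the balance turned to 961 higher and 1107 lower. These counts depended on the EB libraries of CTCF-K20R. They were 499 and 410 without the first and 471 and 414 without the second. Of the genes higher past the fold in WT, 671 had a response called lower in CTCF-K20R, and of those lower, 627 had a response called higher.

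**Figure D5:**
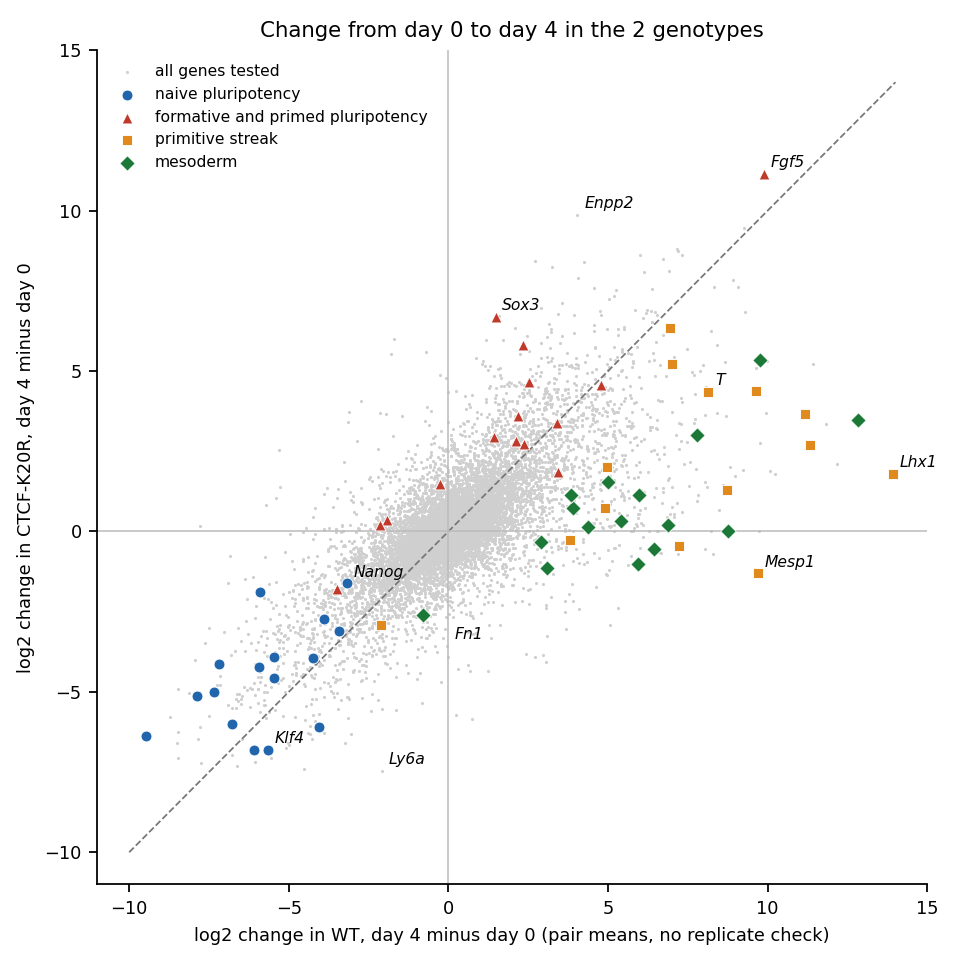
Log2 change between day 0 and day 4 in CTCF-K20R cells (vertical axis) against that in WT cells (horizontal axis, means of library pairs without a replicate check) for 15767 genes in grey and 4 marker lists in colour. The dashed line marks equal change. Naive genes lie low on both axes, most formative genes lie on or above the line, and most primitive streak and mesoderm genes lie below it, far to the right. Some streak and mesoderm genes passed the filter through the WT libraries, which bound them to lie there.

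Many mesoderm, streak and definitive endoderm genes had a lower response in CTCF-K20R cells. Fitted differences of genes near the limit of detection depend on the 1 added before the log. Of 16 mesoderm genes tested, 15 had a response called lower in CTCF-K20R, as had 10 of 14 streak genes and 7 of 9 definitive endoderm genes, where 6.04% of all genes tested were. These counts are a description, since 5 of the mesoderm genes, 4 of the streak genes and 2 of the endoderm genes averaged under 10 normalized counts in CTCF-K20R and passed the filter through the WT libraries, which bound them to differ. Msgn1, Aplnr, Hand1, Lhx1, Mesp1, Cer1 and Sox17 are among them. Of the remaining 11 mesoderm, 10 streak and 7 endoderm genes, 11, 6 and 5 had a response called lower. Lhx1 was at 15604 normalized counts on average in WT EBs and at 6.65 and 6.78 in CTCF-K20R EBs, a difference in response of -12.14 ± 0.69 on the log2 scale (adjusted p = 4.28e-04). Mesp1 was at 1695 on average in WT EBs, and its difference was -11.01 ± 0.76. Cyp26a1, which degrades retinoic acid, was at 6.95 and 19.6 in CTCF-K20R EBs and at 9369.9 in WT EBs. Aplnr, Cer1 and Msgn1 had WT EB means of 7231, 7889 and 883, and Pcdh7, a protocadherin, of 3599, beside 16.7 and 4.97 in CTCF-K20R EBs. Cyp26a1 and Pcdh7 likewise averaged under 10 normalized counts in CTCF-K20R and passed the filter through the WT libraries. T was higher in the EBs of both genotypes, and its response differed by -3.80 ± 0.19 on the log2 scale, with 20799.9 in WT EBs. Fn1, which fell in CTCF-K20R, was at 46052 in WT EBs after 47024 in WT mESCs.

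Naive genes were lower in the EBs of both genotypes, and for 9 of 16 the response was called higher in CTCF-K20R, that is, the fall was smaller, beside 6.84% of all genes tested. Nanog was at 1700.3 normalized counts on average in WT EBs, and its difference in response was 1.56 ± 0.063 (adjusted p = 1.86e-04). Esrrb, with 72.6 in WT EBs, had 2.73 ± 0.095, and Tdh, the threonine dehydrogenase of naive ESCs, had 4.01 ± 0.08. Klf4 and Tbx3 fell further in CTCF-K20R, with differences of -1.16 ± 0.30 and -2.05 ± 0.55. Formative genes showed 9 higher responses and 1 lower of 15, and Sox3 stood out among them with 82.8 in WT EBs and a difference of 5.20 ± 0.49, a call lost without the second EB library (adjusted p = 0.0509). Fgf5 was higher in the EBs of both genotypes, and its difference of 1.26 ± 0.65 did not pass (adjusted p = 0.209). Of the p53 list, 7 of 10 had a higher response, among them Eda2r (1.97 ± 0.14), and of the glycolysis list 7 of 18, among them Pdk1 (2.12 ± 0.058). Of the 22 imprinted genes, 6 had a lower response in CTCF-K20R and 3 a higher one (6.04% and 6.84% of all genes tested).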

How the data were processed

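The authors made RNA-seq libraries of mRNA from 2 independent experiments per group and, per the labels, processed the reads with Trim Galore, Salmon and DESeq2 on mm10. The deposited values are of the unit signal, which the authors made as DESeq2-normalized counts. The strand setting and annotation release are not given in the sources used here. Whole reads could not be recovered. Nothing ties the libraries to separate clones, so p-values measure the spread between these libraries, which may be technical.

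Symbols came from GENCODE by gene ID (17948 of 18094 IDs found). Tests covered genes averaging 10 or more and used log2(value + 1) in limma 3.58.1 (R 4.3.3, empirical Bayes with trend, 6 samples because each WT pair was averaged, residual degrees of freedom 2). Calls needed a Benjamini-Hochberg adjusted p under 0.05 together with a log2 change past 1 in either direction. The script was tested on simulated data. The linear fold of a gene at or under 3 reads in 1 group is a bound, computed against these 3 reads. Genes were named as the 12 largest rises and falls averaging 100 or more over the CTCF-K20R libraries, the 8 most abundant genes called in each direction, the 8 largest differences in response each way, Ctcf, and up to 3 called members each way of every list plus members chosen by role. A few genes named by this rule are not reported here. The genes and lists were chosen with earlier results of these data known. Promoter windows matched 73.7% of the genes tested, so no comparison of promoters between gene groups was made. Alternatives were another added count, filter, normalization, trend, threshold and replicate treatment, and leaving out each library.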

Additional observations from a re-analysis of the deposited data

Results flagged for a closer look

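The difference in response, the change from mESCs to EBs in CTCF-K20R minus that in WT, was called for 1079 genes with a higher and 952 genes with a lower response. The genes below were taken up because the change itself differed between the genotypes by the interaction test of limma with Benjamini-Hochberg adjustment. They are among the 8 largest differences in each direction among genes averaging 100 normalized counts or more in the 8 libraries, and values are on the log2(normalized count + 1) scale.

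On the higher side, Gm14440, a predicted zinc-finger gene, had 7.94 ± 1.0 (adjusted p = 0.00452). It lay between 53.7 and 173 in the 4 CTCF-K20R libraries and at 0 in both WT EB libraries, after 219 and 219 in WT mESCs. The call was lost without either CTCF-K20R EB library (adjusted p = 0.0718 and 0.0777). Enpp2 had 5.83 ± 0.95 (adjusted p = 0.0102), also lost without either EB library (adjusted p = 0.112 and 0.114), with 26 in WT mESCs and 444 in WT EBs. The pseudogene Gm5884 had 5.72 ± 1.58 (adjusted p = 0.0489), and this call was lost without either CTCF-K20R mESC library (adjusted p = 0.122 and 0.121), without the second WT mESC library (0.0642) and without the first WT EB library (0.0514). It was lost as well with 5 added before the log (3.58, adjusted p = 0.128), without the filter (0.118) and without the mean-variance trend (0.16). Kirrel2, an adhesion molecule, had 5.29 ± 0.34, and it was lower in the EBs of both genotypes, at 167 and 228 in CTCF-K20R EBs and 6.65 in WT EBs. Sox3 had 5.20 ± 0.49. Gm21293 had 5.04 ± 0.50, with a WT mESC mean of 13.8 and WT EB libraries at 0. Its WT libraries together averaged under 10, so it passed the filter only through the CTCF-K20R libraries, at 122, 127, 340 and 228. The WT side of its difference therefore rests on low counts. Aass, an enzyme of lysine breakdown, had 4.92 ± 0.30, with 126 and 119.7 normalized counts in the mESCs and 189 and 222 in the EBs of CTCF-K20R, beside 317 and 16.5 in WT.

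On the lower side, Lhx1 had -12.14 ± 0.69, Mesp1 -11.01 ± 0.76 and Cyp26a1 -10.07 ± 1.06. Aplnr had -9.36 ± 0.69, Cer1 -8.63 ± 0.84 and Pcdh7 -8.45 ± 1.07. Of the exonic bases of Pcdh7, 21.1% are shared with a gene on the other strand. The call of Cer1 was lost with 0.1 added before the log in place of 1 (adjusted p = 0.0633). Defa30 and Msgn1, with -9.72 ± 0.87 and -8.75 ± 0.85, were at 0 in all 4 CTCF-K20R libraries and at 843 and 883 in WT EBs. All genes named on this lower side averaged under 10 in CTCF-K20R and passed the filter only through the WT EB libraries. The direction of their difference was therefore fixed by how they entered. Defa30 is a defensin gene with near-identical copies among which reads may be split.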

How the results depend on the processing

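Of 390 list or named genes tested, 229 were called in CTCF-K20R, and 43 of these lost the call in at least 1 alternative while none changed sign. The genes called higher numbered 1780 to 2185 and those lower 1592 to 1680 when 1 CTCF-K20R library was left out. Without a minimum fold change the adjusted p alone called 4715 genes higher and 4506 lower (58.5% of genes tested), and quantile normalization put the share of higher calls at 50.5%. The change of Gm14440 in CTCF-K20R, which did not pass, turned lower with quantile normalization (-0.0029), without mESC replicate 1 (-0.6703) and without EB replicate 2 (-0.1288), and was 0.999 without mESC replicate 2. The cause was not tested. The difference in response was less stable. It gave 499 and 410 genes (higher and lower) without CTCF-K20R EB replicate 1 and 471 and 414 without replicate 2, the extremes over the fits without 1 library reaching 1090 and 969. It gave 961 and 1107 with equal library totals, 1709 and 1631 with all 8 libraries as separate samples, 2315 and 1885 without a minimum fold change, and 653 and 460 at an adjusted p under 0.01. Replicate numbers did not pair the CTCF-K20R samples (correlation of replicate differences between days -0.01 over 15767 genes), and with a replicate block 2302 genes were called higher and 1833 lower, while the block within genotype over all 8 libraries gave 1684 and 1580 for the difference in response. With 2 libraries per day and 2 residual degrees of freedom, changes of genes near 3 reads were limited by depth.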

Other observations

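By chromosome, counts of calls stand against the 14.5% of all genes tested that were called higher and the 11.6% called lower. On chromosome X, 131 of 555 genes tested were called higher and 57 lower, with a median log2 fold change of 0.16. Chromosome 14 held 126 genes called higher and 58 lower of 556 tested, while on chromosome 11 more genes were called lower (185) than higher (151) of 1259. Embryonic globins were seen at low levels in the EBs and were below the filter. Hba-x was at 0 normalized counts in both mESC libraries and 7.98 and 3.23 in the EBs. The value of the second EB library lay under its limit of detection of 3.26.

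By annotated type, counts of calls stand against the same shares of 14.5% and 11.6%, or 26.1% in either direction. Of 454 long intergenic non-coding genes, 40 were called higher and 84 lower, and of 449 antisense genes, 35 were called higher and 69 lower, whereas of 14118 protein-coding genes 2130 were called higher and 1605 lower. No test of these differences between gene types or chromosomes was run.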
